A study of Homo sapiens with 16 samples.

Results

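The insulin-like growth factor (IGF) axis was followed here through 10 genes, taken by name from a table of 20114 genes. They are the 7 binding protein genes IGFBP1 to IGFBP7, the ligand gene IGF2 and the receptor genes IGF1R and IGF2R, and the rule is the list of names, with no threshold on a value. RNA was sequenced from 2 human tumour cell lines, Hs578 and TT642, each as parental cells that carry no hairpin and as derived lines with a doxycycline-inducible short hairpin RNA against PRRX1, a homeobox transcription factor of mesenchymal cells. Each cell line gave 4 groups, namely parental cells without doxycycline, parental cells with 3 µg/ml doxycycline, the hairpin lines without it, and the hairpin lines with 3 µg/ml. A parental group held 1 library and a hairpin group 3, 1 for each of hairpins 1 to 3, which made 8 groups and 16 libraries. The hairpin lines with and without the drug carry the same construct, and both parental groups lack it. Hs578 is labelled as breast cancer cells and TT642 as rhabdoid tumour cells, while the design text of the series calls both triple-negative breast cancer.

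The ligands IGF1 and IGF2 signal through the tyrosine kinase receptor IGF1R, which passes the signal to the adaptors IRS1 and IRS2 and on to PI3K and AKT. IGF2R, the cation-independent mannose 6-phosphate receptor, binds IGF2 without such a kinase and carries it to lysosomes. The secreted binding proteins hold IGFs in the extracellular space, and proteases such as PAPPA, which cuts IGFBP4 and IGFBP5, release them again. In mesenchymal and stromal cells the binding proteins are among the abundant secreted products.

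Total counts were 13461527 to 19139654 in the Hs578 libraries and 15265227 to 24672906 in the TT642 libraries. The mitochondrial share of counts was 2.16% to 2.79% over the 4 untreated Hs578 libraries, 4.16% in treated parental cells and 3.18%, 4.27% and 5.44% in treated hairpin lines 1, 2 and 3. PRRX1, the target of the hairpins, was 290 CPM (counts scaled to library size with TMM factors, the trimmed mean of M-values) without and 298 CPM with doxycycline in Hs578 parental cells. With doxycycline, 12.7%, 32.1% and 19.5% of its level was left in Hs578 hairpin lines 1, 2 and 3, and 21.8%, 13% and 39.4% in the TT642 lines with the same numbers. The Hs578 difference was called by edgeR (log2 -2.28, SE 0.37, adjusted p = 0.0022), except without hairpin 1 (0.060). All 8 mesenchymal markers examined were above a mean of 10 CPM in Hs578, as were 5 of 8 in TT642. Of 8 epithelial markers 2 exceeded that level in Hs578 (KRT8 and KRT18) and none in TT642, and of 3 breast receptor genes only ERBB2 exceeded it in each line. SMARCB1, the gene whose loss defines most rhabdoid tumours, was at 28.8 to 41.6 CPM in TT642 and at 87.7 to 125 CPM in Hs578. Markers of blood cells summed to 43.7 to 105 CPM in Hs578 and 12.2 to 17.2 CPM in TT642, nearly all of it CD68, and endothelial markers to at most 0.183 CPM in any library. The labels do not state that the libraries of a group are separate cultures, and every p-value below reflects only how these libraries vary. In a hairpin group each library has its own hairpin number, so that spread can mix hairpin differences with technical variation.

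The lines held different sets of binding proteins. FPKM values, which are scaled for depth and transcript length, allow genes to be ranked within a line, here over its 4 libraries without doxycycline. In Hs578, IGFBP7 stood first with a median of 229 FPKM (209 to 242), followed by IGFBP3 at 116 FPKM (94.7 to 140) and IGFBP4 at 85.9 FPKM (81.4 to 95.4). The ranges of IGFBP3 and IGFBP4 overlapped. IGF2R came next at 46.3 FPKM (44.1 to 49.4), then IGFBP6 at 27.1 (21.9 to 31.6) and IGFBP5 at 10.9 (8.63 to 12.6). IGFBP1 (7.76 FPKM, 5.43 to 9.45) and IGF2 (6.11 FPKM, 5.32 to 7.11) overlapped each other, and IGFBP1 also overlapped IGFBP5. IGF1R was at 3.33 FPKM (3.11 to 4.46), and IGFBP2 was last at 0.083 FPKM (0 to 0.166). IGFBP2 had 0 to 4 counts in every Hs578 library, with or without doxycycline.

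TT642 cells expressed mainly IGFBP6, a binding protein that prefers IGF2 over IGF1. It had a median of 142 FPKM (111 to 159), above IGF2R at 43.8 FPKM (39.6 to 44.0). IGFBP2, a binding protein common in fetal tissue and tumours, followed at 9.72 FPKM, over a wide range of 3.46 to 36.8. IGFBP4 (4.41 FPKM, 3.55 to 4.72), IGF1R (3.10 FPKM, 1.95 to 6.50), IGFBP3 (1.16 FPKM, 1.01 to 1.60) and IGF2 (0.759 FPKM, 0.390 to 1.21) were lower. The ranges of IGFBP2, IGFBP4 and IGF1R overlapped, as did those of IGFBP3 and IGF2. IGFBP5 had 0 to 65 counts and IGFBP7 0 to 3 counts in the 8 libraries. No TT642 library held a count of IGFBP1, and 3 counts over the uninduced hairpin group would have been 0.0534 CPM. The FPKM values of IGF1R moved apart from its counts, by up to 2.88 times between Hs578 libraries and 3.33 times between TT642 libraries, so its changes are given from counts.

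**Figure D1:**
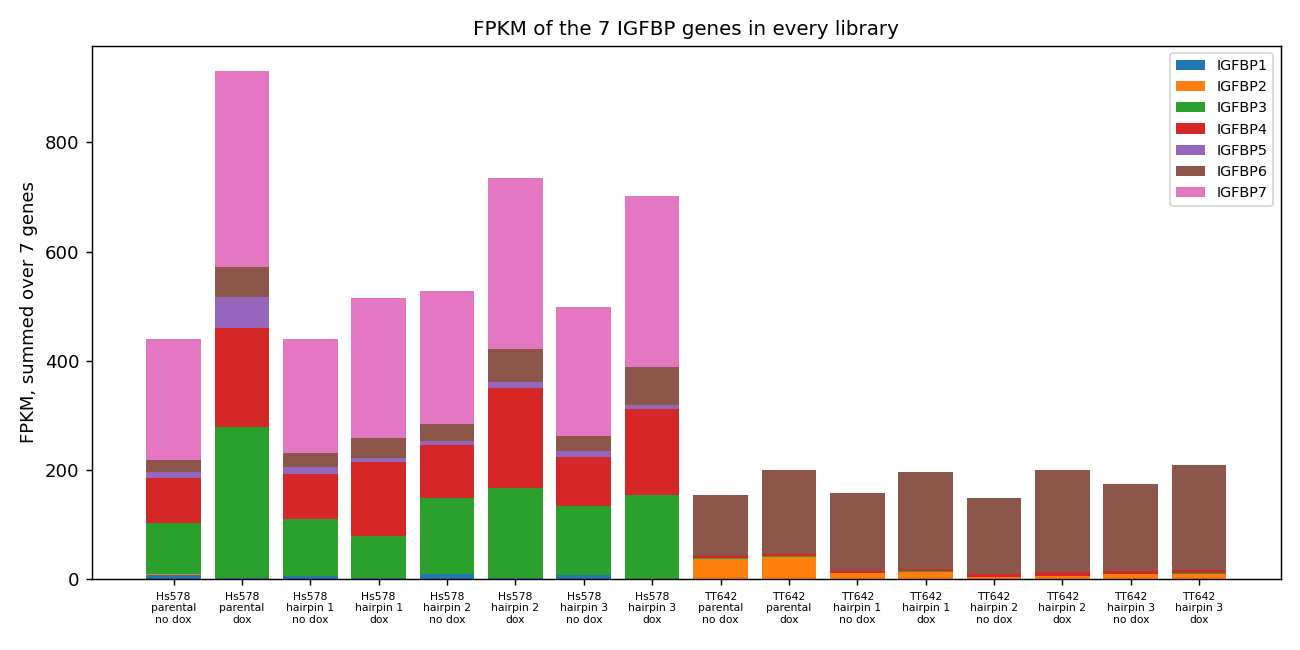
Stacked bars give the FPKM of the 7 IGFBP genes, summed, in each of the 16 libraries, with 1 colour per gene. Hs578 bars stand at 439 to 528 FPKM without doxycycline and 516 to 930.2 FPKM with it, and IGFBP6 fills most of each TT642 bar.

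Summed over the 7 binding protein genes, Hs578 libraries held 440.2 FPKM in parental cells and 439, 528 and 498 FPKM in hairpin lines 1 to 3 without doxycycline. With doxycycline the sums were 930.2 FPKM in parental cells and 516, 735 and 702 FPKM in the hairpin lines. The sum was higher with doxycycline in all 4 Hs578 pairs, and the highest value belonged to the cells without a hairpin. IGFBP7, also called angiomodulin, gave 38.6% to 50.4% of the sum in every Hs578 library. In TT642 the sums were 149 to 174 FPKM without and 196 to 209.8 FPKM with doxycycline. IGFBP6 made up 72.0% and 76.5% of the sum in TT642 parental cells and 90.3% to 94.0% in the hairpin lines.

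Between the uninduced hairpin lines of Hs578 and TT642, 7 of the 10 genes were higher in Hs578 and 2 were higher in TT642 by edgeR's quasi-likelihood test at an adjusted p under 0.05. In this comparison 80.8% of the 14035 genes tested were called, 41% higher and 39.7% lower in Hs578, so a call by itself sets no gene apart. The median log2 difference of the 10 genes was 3.81, beside 0.01 over all genes tested. It only describes these genes. IGFBP1, at 0 counts in TT642 libraries, and IGFBP7, at 0 to 3, passed the filter on low counts through Hs578. IGFBP2, at 0 to 4 counts in Hs578 libraries, passed it through TT642. A difference between the lines was therefore set in advance for these members. IGFBP7 had 18924 counts over the 3 Hs578 libraries and 3 over the 3 TT642 libraries, a CPM ratio of 6952 (95% counting interval 2379 to 33716). IGFBP5 was 381 times higher in Hs578 (218 to 737), IGFBP3 122 times (104 to 144) and IGFBP4 23.5 times (21.5 to 25.6). The IGFBP5 ratio rests on 12 counts in TT642 hairpin lines and leaves out the parental cells. In those, without doxycycline, IGFBP5 was 90.7 CPM in Hs578 and 3.02 CPM in TT642, a smaller gap. IGFBP1 had no TT642 count. Its ratio was 260 against a floor of 3 counts over the TT642 group, and its 95% counting interval began at 211. IGF2 was higher in Hs578 by 3.06 (log2, SE 0.45, adjusted p = 1.1e-04).

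The genes higher in TT642 were IGFBP6, at 166 ± 10.6 CPM against 36.0 ± 3.62 in Hs578 (SD, n = 3; log2 difference -2.21, SE 0.21, adjusted p = 8.5e-07), and IGFBP2, with 352 counts over 3 libraries against 2. The receptors lay close together in the lines. IGF2R was 467 ± 25.8 CPM in Hs578 and 410.1 ± 18.9 CPM in TT642 and was not called (log2 0.19, SE 0.14, adjusted p = 0.21). IGF1R was 31.8 ± 2.88 and 24.0 ± 2.99 CPM (log2 0.41, SE 0.12, adjusted p = 0.0071). The IGF1R call ended without hairpin 1 (adjusted p = 0.053) and with log2(FPKM + 1) (0.64) or log2(FPKM + 0.1) values (0.59), over a range of 0.0035 to 0.64 across alternatives. Since these are bulk RNA samples, fewer cells that express a gene and less RNA per cell cannot be told apart.

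**Figure D2:**
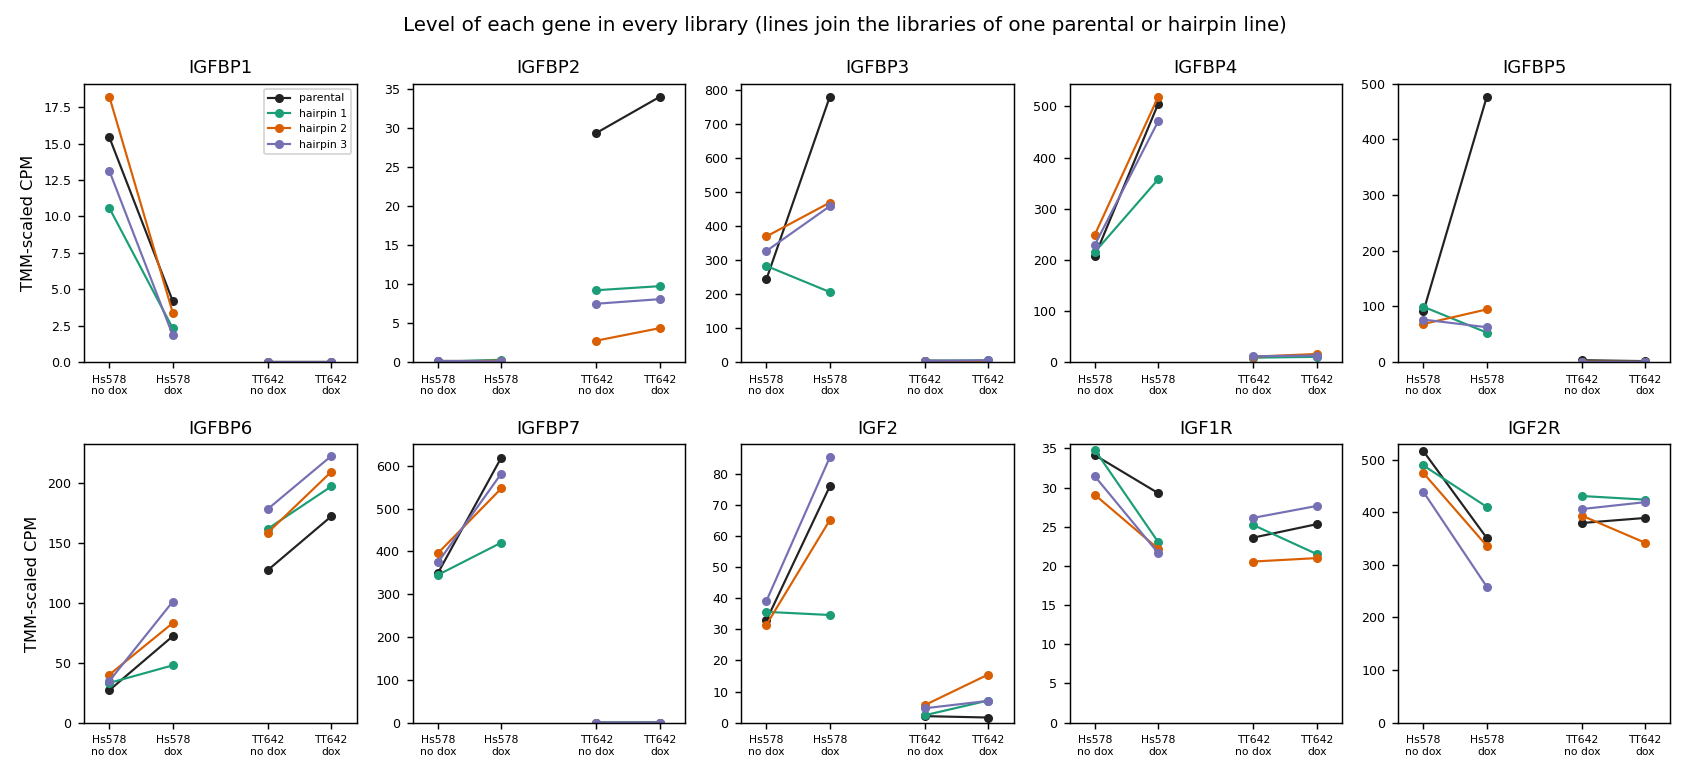
Each panel gives the TMM-scaled CPM of 1 gene in the 16 libraries, with lines joining the libraries with and without doxycycline of 1 parental or hairpin line. IGFBP1 is lower and IGFBP4, IGFBP6 and IGFBP7 are higher with doxycycline in all 4 Hs578 pairs, while IGFBP3 and IGFBP5 stand high with doxycycline in Hs578 parental cells.

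In Hs578 hairpin lines, doxycycline was compared with none, a comparison called induction here. It changes the drug and the PRRX1 hairpin together, so by itself it cannot tell them apart. Among the 10 genes, IGFBP4, IGFBP6 and IGFBP7 rose, IGFBP1, IGF1R and IGF2R fell, and 4 were not called, by edgeR at an adjusted p under 0.05. Over all genes tested 29.3% were called, 15.2% higher and 14.1% lower. The median log2 fold change of the 10 genes was 0.34, beside 0.00 over all genes. Each of the 6 called genes was on the same side in the parental cells, which carry no hairpin.

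IGFBP1, a binding protein under insulin, stress and hypoxia control in other tissues, was 10.6, 18.2 and 13.1 CPM in hairpin lines 1, 2 and 3 without doxycycline and 2.31, 3.38 and 1.83 CPM with it. In parental cells the values were 15.4 CPM without and 4.18 CPM with the drug. All 4 treated libraries lay below all 4 untreated ones. The mean in the hairpin lines went from 14.0 ± 3.89 to 2.51 ± 0.793 CPM (SD, n = 3), a log2 fold change of -2.50 (SE 0.29, adjusted p = 4.7e-04, lower in 3 of 3 lines). It was called under every alternative run, with adjusted p of 8.6e-12 to 0.014.

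IGFBP4, which as a rule restrains IGF action until PAPPA cuts it, was 215, 249 and 229 CPM in hairpin lines 1 to 3 without doxycycline and 358, 519 and 471 CPM with it. The parental cells gave 207 and 506 CPM. The treated and untreated libraries did not overlap, and hairpin line 1 had the lowest treated value. The rise was 0.96 on the log2 scale (SE 0.15, adjusted p = 0.0010), from 231 ± 17.1 to 449 ± 83.0 CPM (SD, n = 3), and was called under every alternative, with adjusted p of 1.1e-07 to 0.047.

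IGFBP6 was 33.2, 40.1 and 34.8 CPM without doxycycline and 47.9, 83.2 and 101 CPM with it in hairpin lines 1 to 3, and 27.1 and 72.2 CPM in parental cells. Here too every treated library lay above every untreated one. The log2 fold change was 1.10 (SE 0.21, adjusted p = 0.0031), and the call ended without hairpin 3, where the adjusted p was 0.061 (against 6.1e-07 to 0.042 under the others). IGFBP7, which binds IGFs weakly and is a product of stromal and endothelial cells, was 345, 396 and 374 CPM without and 420.4, 547 and 582 CPM with doxycycline, and 349 and 619 CPM in parental cells. Its groups did not overlap, and the rise was the smallest of the 3 (log2 0.47, SE 0.14, adjusted p = 0.024). The IGFBP7 call ended without hairpin 2 (0.083) or 3 (0.23), without the uninduced library of hairpin 1 (0.10) or 3 (0.071), without the induced library of hairpin 2 (0.084) or 3 (0.091), and with log2(FPKM + 0.1) values (0.22), over a range of 0.0032 to 0.23.

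Both receptor genes fell. IGF1R, the signalling receptor, was 34.8, 29.1 and 31.4 CPM without doxycycline and 23.1, 22.2 and 21.6 CPM with it in hairpin lines 1 to 3. Parental cells gave 34.1 and 29.3 CPM, so the parental treated value lay within the untreated range. The log2 fold change in the hairpin lines was -0.51 (SE 0.13, adjusted p = 0.0083), from 31.8 ± 2.88 to 22.3 ± 0.709 CPM (SD, n = 3). The call ended without hairpin 1 (0.070) or 3 (0.069) and with log2(FPKM + 1) (0.28) or log2(FPKM + 0.1) values (0.24), over a range of 0.0013 to 0.28.

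IGF2R, the clearance receptor, was 489, 474 and 439 CPM without and 410.2, 336 and 258 CPM with doxycycline in hairpin lines 1 to 3. The parental cells gave 516 and 351 CPM. All treated libraries lay below all untreated ones, and hairpin line 3 was lowest. The log2 fold change was -0.48 (SE 0.14, adjusted p = 0.017). The call ended without hairpin 2 (0.089) or 3 (0.13), without the uninduced library of hairpin 1 (0.069) and without the induced library of hairpin 2 (0.053) or 3 (0.064), over a range of 0.0014 to 0.13.

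IGF2, the ligand, was 35.6, 31.5 and 39.1 CPM without and 34.6, 65.1 and 85.3 CPM with doxycycline in hairpin lines 1 to 3. It was higher in hairpin lines 2 and 3 but not in line 1, and parental cells gave 32.9 and 75.9 CPM. The difference was not called (log2 0.80, SE 0.38, adjusted p = 0.14), except without the induced library of hairpin 1 (1.09, adjusted p = 0.039), and its adjusted p ran from 0.039 to 0.55 over the alternatives. The readthrough gene INS-IGF2, which shares sequence with IGF2, was listed at 0 in every library, and the sources used here do not say how shared reads were assigned.

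The sum of the 8 mesenchymal markers moved with these changes. It was 20623 CPM without and 41759 CPM with doxycycline in Hs578 parental cells, and went from between 20813 and 23276 CPM to between 29308 and 41328 CPM in the hairpin lines. Its part in the IGF axis changes was not tested, nor was that of the mitochondrial share given above. Markers of hepatocytes, a main source of IGFBP1 in the body, summed to at most 0.495 CPM in any Hs578 library. Of 3 markers of decidual stroma, another source, PRL was at 0 in every library, and the sum was 7.09 to 11.3 CPM in Hs578 and 73.9 to 164 CPM in TT642. Only 1 of the 3 was above a mean of 10 CPM in TT642.

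IGFBP3 and IGFBP5, like IGFBP7 above, had their highest Hs578 values in the 1 parental library with doxycycline. None of these genes passed the test against the hairpin lines given below. IGFBP3 is the main IGF carrier of plasma, and IGFBP5 is a matrix-binding IGFBP of stromal cells. In parental Hs578 cells IGFBP3 was 243 CPM without and 779 CPM with doxycycline, a ratio of 3.21 (95% counting interval 3.10 to 3.33). In hairpin lines 1, 2 and 3 it was 282, 369 and 326 CPM without and 205, 468 and 457 CPM with the drug, ratios of 0.728, 1.27 and 1.40. The treated parental library was the highest of the 8, and line 1 went the other way from lines 2 and 3.

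IGFBP5 showed a wider gap. It was 90.7 CPM in parental cells without and 476 CPM with doxycycline, a ratio of 5.25 (4.98 to 5.55). In hairpin lines 1 to 3 it was 99.1, 68.1 and 76.1 CPM without and 52.7, 94.4 and 62.3 CPM with it, ratios of 0.532, 1.39 and 0.819. Without doxycycline all 4 Hs578 values lay between 68.1 and 99.1 CPM, and with it the hairpin libraries lay between 52.7 and 94.4 CPM.

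The next comparison set the doxycycline response of the hairpin lines against that of parental cells (the net effect). It rests on 1 parental library in each state. Of all genes tested 0.406% were called in Hs578, 0.292% higher and 0.114% lower, and of the 10 members none was called. IGFBP5 came closest, with a net log2 difference of -2.61 (SE 0.49, adjusted p = 0.056). It was called by DESeq2 (0.036), by limma on log2(FPKM + 1) (0.0091), without hairpin 2 (0.017) and without the induced library of hairpin 2 (0.023), over a range of 0.0091 to 0.31. For IGFBP3 the net difference was -1.47 (SE 0.64, adjusted p = 0.34).

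The 6 genes called for induction had net differences between -0.61 (IGFBP1, SE 0.54, adjusted p = 0.67) and 0.07 (IGF2R, SE 0.27, adjusted p = 0.96). Those of IGFBP4, IGFBP6, IGFBP7 and IGF1R were -0.33, -0.31, -0.35 and -0.29, with SEs of 0.30, 0.41, 0.29 and 0.25. Each lay within 1.5 SE of 0, and the test does not show that hairpin and parental cells responded alike. The induction effect and the net effect share the hairpin libraries. By the hairpin lines alone, IGFBP5 was not called for induction (log2 -0.22, SE 0.24, adjusted p = 0.54) except without hairpin 2 (-0.61, adjusted p = 0.036), and neither was IGFBP3 (0.21, SE 0.32, adjusted p = 0.67).

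**Figure D3:**
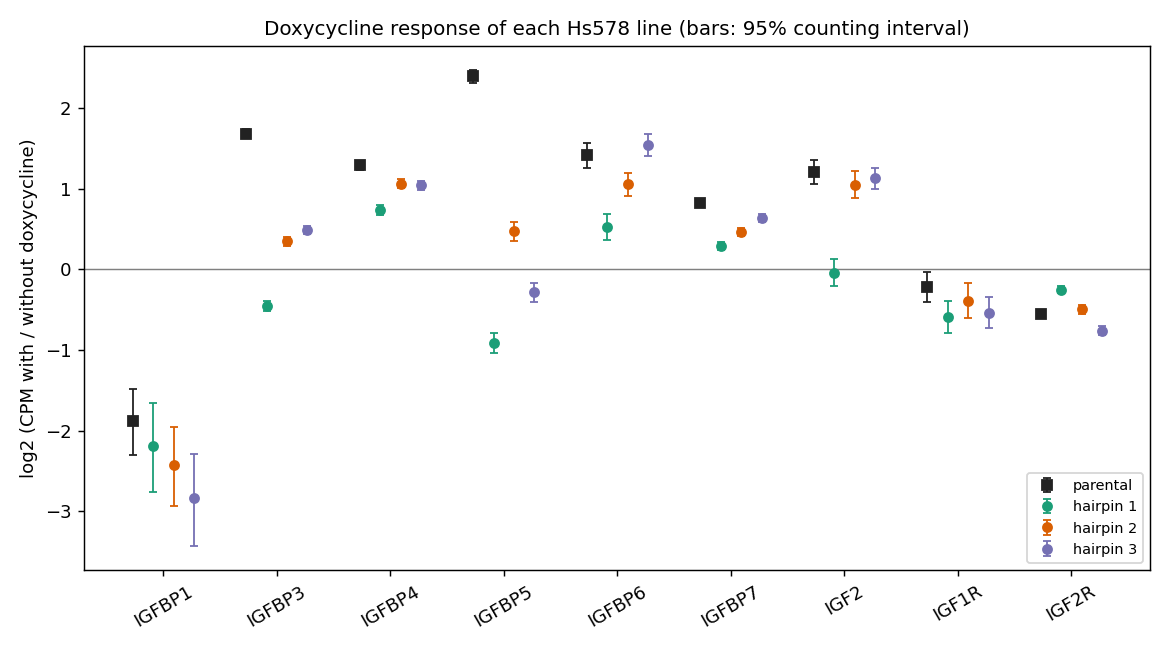
Points give the log2 ratio of CPM with to CPM without doxycycline for 9 genes in each Hs578 line, squares for parental cells and circles for hairpin lines, with bars for the 95% counting interval (IGFBP2, at 0 to 4 counts, is left out). Parental cells and the 3 hairpin lines lie on the same side of 0 for IGFBP1, IGFBP4, IGFBP6, IGFBP7, IGF1R and IGF2R. Among the 9 genes the parental ratio is the highest of the 4 except for IGFBP6 and IGF2R.

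The promoters of IGFBP3 and IGFBP5 are shown because these were the members with the highest ratios of treated to untreated parental Hs578 cells. Each line gives the 250 bases before the start of the gene, 5′ to 3′, from RefSeq on GRCh38.p14 and the minus strand, at chr7:45921273-45921522 for IGFBP3 and chr2:216695550-216695799 for IGFBP5. The expression data were made on hg19, and no coordinate was moved between builds. Capitals mark matches to the motifs searched.
IGFBP3: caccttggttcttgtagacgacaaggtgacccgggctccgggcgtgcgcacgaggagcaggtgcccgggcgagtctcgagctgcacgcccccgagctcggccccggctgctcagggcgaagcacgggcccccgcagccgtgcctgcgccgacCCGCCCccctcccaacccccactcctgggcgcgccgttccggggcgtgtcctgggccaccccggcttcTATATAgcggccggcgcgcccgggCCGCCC
IGFBP5: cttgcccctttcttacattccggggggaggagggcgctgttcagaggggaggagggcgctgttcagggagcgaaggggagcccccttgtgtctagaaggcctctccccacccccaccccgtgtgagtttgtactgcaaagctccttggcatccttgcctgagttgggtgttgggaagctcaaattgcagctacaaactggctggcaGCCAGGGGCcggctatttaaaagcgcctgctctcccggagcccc
Both strands were searched for 6 motifs. The homeodomain core was searched as TAATTA. The TATA box was searched as TATAAA and, in another form that can overlap it, as TATATA. The GC box was searched as GGGCGG. The palindrome of AP-2 type was searched as GCCNNNGGC. The AP-1 site was searched as TGANTCA. The IGFBP3 window held TATATA at 30 to 25 bases before the start and GGGCGG at 98 to 93 and at 6 to 1 bases before it. The IGFBP5 window held GCCNNNGGC at 44 to 36 bases before the start. Over 35116 RefSeq promoter windows of the same length, TATATA stood in 3.73%, GGGCGG in 42.6% and GCCNNNGGC in 19.8%. None of the 7 members with a window in the table held the homeodomain core or the AP-1 site, found in 4.35% and 6.57% of all windows. Of the 7, only IGFBP4 held TATAAA, which stood in 10.7% of all windows. On the same genome IGFBP3 lies beside IGFBP1 on chromosome 7, and IGFBP5 beside IGFBP2 on chromosome 2, with no protein-coding gene between.

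In TT642 hairpin lines no member was called for doxycycline, out of 9 that could be tested. Over all genes 0.0285% were called, which was 4 genes, and 1098 of 14035 had an unadjusted p under 0.05. The median log2 fold change of the 9 members was 0.19. PRRX1 itself, although lower in 3 of 3 lines (log2 fold change -2.03, SE 0.36), missed the threshold by edgeR (adjusted p = 0.17) and passed it by DESeq2 (6.4e-05), by limma on either FPKM scale (0.023 and 0.017) and without the induced library of hairpin 3 (0.0040), over a range of 6.4e-05 to 0.87. IGF2 had the smallest p of the members (0.026 unadjusted, adjusted p = 0.53).

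IGF2 in TT642 was 2.38, 5.64 and 4.62 CPM without and 7.11, 15.5 and 7.0 CPM with doxycycline in hairpin lines 1 to 3, and 2.09 and 1.64 CPM in parental cells. The 3 induced hairpin libraries were the highest of the 8, and the parental values were the lowest. The log2 fold change was 1.22 (SE 0.46), and net of the parental effect it was 1.56 (SE 1.19) and was not called. IGFBP6, the leading binding protein of these cells, was 162, 159 and 179 CPM without and 197, 209.5 and 223 CPM with doxycycline, and 127 and 172 CPM in parental cells. It was higher with the drug in all 4 pairs, with ratios of 1.22, 1.32, 1.25 and, in parental cells, 1.35, and the hairpin groups did not overlap. The test did not call it (log2 0.34, SE 0.20, adjusted p = 0.74).

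IGFBP4 in TT642 was 8.22, 10.3 and 11 CPM without and 9.89, 15.4 and 12.5 CPM with doxycycline in the hairpin lines (log2 0.37, SE 0.18, adjusted p = 0.65). IGF1R, at 20.6 to 27.7 CPM over the 8 libraries, and IGF2R, at 342 to 431 CPM, showed log2 fold changes of -0.03 (SE 0.12) and -0.05 (SE 0.14). Neither had a direction shared by the 3 hairpin lines. IGFBP3, IGFBP5 and IGFBP7 reached no more than 4.89, 3.02 and 0.170 CPM in any TT642 library, and their adjusted p by edgeR was 0.91, 0.99 and 0.88. Net of the parental effect no member was called in TT642, where the share of all genes called was 0% (0 by edgeR and by DESeq2, with 179 at an unadjusted p under 0.05).

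The difference between the induction effects of the lines was tested directly. None of the 9 members that could be tested was called, against 5.24% of all genes, 2.76% higher and 2.48% lower in Hs578. The largest of those with a readable level was IGFBP6, whose log2 fold change was higher in Hs578 by 0.77 (SE 0.28, adjusted p = 0.12). IGFBP4 differed by 0.59 (SE 0.23, adjusted p = 0.14), IGF1R by -0.48 (SE 0.18, adjusted p = 0.11) and IGF2R by -0.43 (SE 0.19, adjusted p = 0.19). With each derived line as a replicate block, which pairs its libraries, IGFBP4 (0.59, adjusted p = 0.022) and IGF1R (-0.47, adjusted p = 0.040) were called. IGFBP6 was called by DESeq2 (0.043), and without the induced Hs578 library of hairpin 1 so were IGFBP4 (0.030), IGFBP6 (0.0014) and IGF2R (0.026). Without hairpin 1 in both lines IGFBP6 alone was called (0.041). Over all alternatives the adjusted p ran from 0.022 to 0.63 for IGFBP4, from 0.0014 to 0.57 for IGFBP6, from 0.040 to 0.64 for IGF1R and from 0.026 to 0.65 for IGF2R.

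The uninduced TT642 hairpin lines were also compared with their parent, which gave 1 library, and none of the 9 members tested was called. IGFBP2 was 29.3 CPM in parental cells and 9.18, 2.72 and 7.45 CPM in uninduced hairpin lines 1 to 3, and with doxycycline it was 34.0 CPM against 9.71, 4.32 and 8.04 CPM. Both parental libraries lay above all 6 hairpin libraries. IGFBP5 had 65 counts in the parental library against 2, 10 and 0 in the uninduced hairpin lines, and 27 against 1, 3 and 6 with doxycycline. With 1 uninduced parental library, edgeR called neither IGFBP2 (log2 difference -2.19, SE 0.49, adjusted p = 0.078) nor IGFBP5 (-3.78, SE 0.78, adjusted p = 0.057), in a comparison that called 0.919% of all genes, 0.157% higher and 0.762% lower in the hairpin lines.

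DESeq2 called both (0.016 for IGFBP2 and 3.2e-05 for IGFBP5), as did edgeR without hairpin 2 (0.014 and 0.0070) and without its uninduced library (0.048 and 0.033). On the FPKM scale, log2(FPKM + 1) called IGFBP2 (0.036) and log2(FPKM + 0.1) called IGFBP5 (0.032). Across alternatives the adjusted p ran from 0.014 to 0.53 for IGFBP2 and from 3.2e-05 to 0.54 for IGFBP5. None of the other 7 members tested was called in this comparison under any alternative.

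Around these genes, 54 further genes of the IGF pathway were read as lists. Of them 53 were in the table and 47 could be tested for induction in Hs578, where 3 rose and 12 fell, beside 29.3% of all genes called, and their median log2 fold change was -0.16. In TT642 0 of 48 were called. Ligands other than IGF2 were near absent, with IGF1 at 1 count over all 16 libraries. INSR, the insulin receptor, had 0 to 6 counts in the Hs578 libraries and 76.3 CPM in TT642 parental cells without doxycycline, with 85.4 ± 3.58 CPM in the uninduced TT642 hairpin lines (SD, n = 3). IRS2 had no count in any Hs578 library. Between the uninduced hairpin lines, 22 of 48 pathway genes were higher in Hs578 and 22 in TT642, beside the 80.8% called over all genes.

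PAPPA, the protease that cuts IGFBP4 and IGFBP5, differed between parental and hairpin cells in Hs578. It was 137 CPM in parental cells without and 277 CPM with doxycycline, a ratio of 2.01 (95% counting interval 1.91 to 2.12). In hairpin lines 1 to 3 it was 161, 111 and 133 CPM without and 58.3, 90.2 and 94.0 CPM with it. All 3 hairpin lines were lower with the drug and the parental cells higher. The fall was called within the hairpin lines (log2 -0.74, SE 0.17, adjusted p = 0.0061), as was the net difference (-1.75, SE 0.33, adjusted p = 0.042). It was the only gene called of 47 pathway genes in the net comparison, beside 0.406% called over all genes. The net call ended with the replicate block (0.092), with the Hs578 libraries alone (0.11), with log2(FPKM + 0.1) values (0.060), without hairpin 1 (0.12) or 3 (0.20) and without the uninduced library of hairpin 1 (0.085) or 3 (0.10), over a range of 2.8e-05 to 0.20. The induction call ended without hairpin 1 (0.054) or hairpin 3 (0.050). PAPPA was lower in Hs578 than in TT642 by 2.45 on the log2 scale (log2 difference -2.45, SE 0.17, adjusted p = 1.1e-08), and STC1, which encodes an inhibitor of PAPPA, was higher (11.39, SE 0.33), with 0 to 9 counts in TT642 libraries. Of 7 protease and regulator genes tested, 6 were called higher in Hs578, among them HTRA1 (9.79) and ADAM9 (2.09), beside 80.8% of all genes called and 41% called higher. HTRA1 had 6 counts over the uninduced TT642 hairpin libraries. Like STC1 it passed the filter on low counts through Hs578 alone, so the share called is no result about this list. STC1 also fell with induction in Hs578 (-0.50, SE 0.16, adjusted p = 0.031), a call that ended without hairpin 1 (0.22) or 3 (0.20), without the uninduced library of hairpin 1 (0.14) or 3 (0.065), without the induced library of hairpin 3 (0.10) and with log2(FPKM + 0.1) values (0.066). In parental Hs578 cells STC1 was 244 CPM without and 211 CPM with doxycycline.

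The IGF2 mRNA binding proteins, which bind IGF2 and other transcripts, were all lower in Hs578, by log2 differences of -8.63 for IGF2BP1, -1.40 for IGF2BP2 and -0.86 for IGF2BP3. IGF2 itself was higher there. With induction in Hs578 only IGF2BP2 of the 3 fell (-0.26, SE 0.08, adjusted p = 0.028). TMEM219, a cell surface receptor of IGFBP3, rose (0.51, SE 0.11, adjusted p = 0.0052) and LRP1, another IGFBP3 receptor, was not called. Without hairpin 3 neither IGF2BP2 (0.22) nor TMEM219 (0.069) was called. The IGF2BP2 call also ended without hairpin 1 (0.15), without any 1 uninduced library (0.066 to 0.067) and without the induced library of hairpin 1 (0.054) or 3 (0.078). In parental Hs578 cells, without and with doxycycline, IGF2BP2 was 150 and 178 CPM, the other way from its fall in the hairpin lines. IGF2BP3 was 75.7 and 36.6 CPM there.

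**Figure D4:**
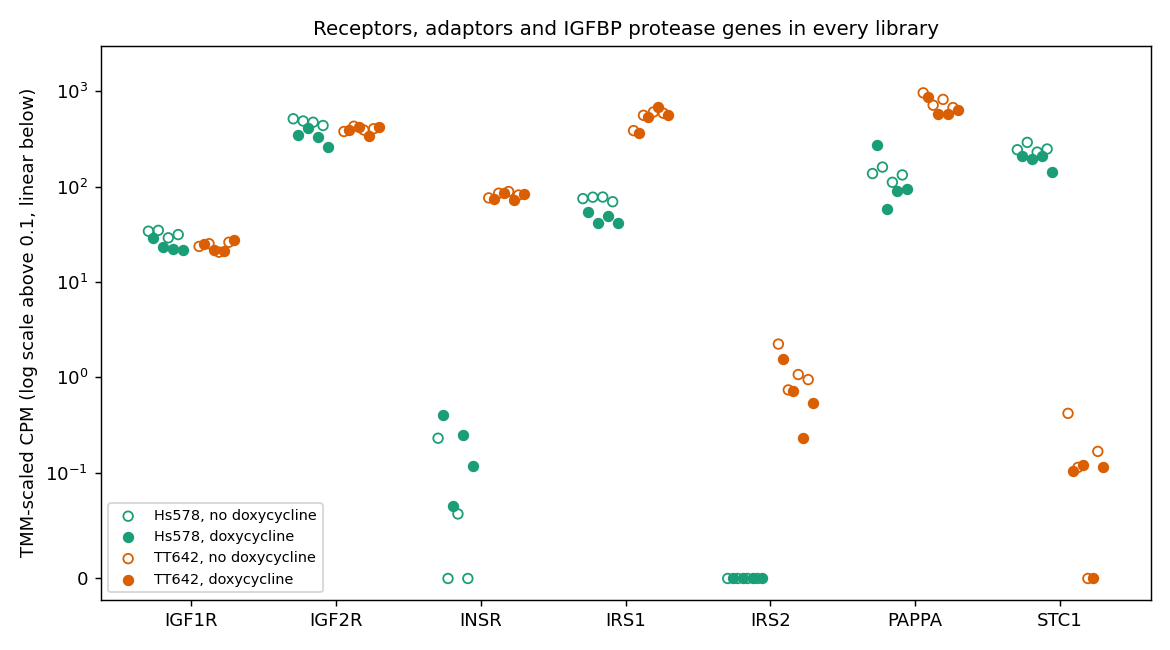
Points give the TMM-scaled CPM (log axis above 0.1 and linear below) of receptor, adaptor and protease genes in the 16 libraries, open without and filled with doxycycline. IGF1R and IGF2R lie at similar levels in both lines, INSR, IRS1, IRS2 and PAPPA are higher in TT642, and STC1 is higher in Hs578.

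Downstream of the receptor, 3 of 6 adaptor genes tested fell in Hs578 and none rose, beside 14.1% lower and 15.2% higher over all genes. IRS1, the adaptor that docks on IGF1R, went from 75.0 ± 4.74 to 44.4 ± 4.67 CPM (SD, n = 3; log2 -0.76, SE 0.11, adjusted p = 4.7e-04), and its parental values were 74.9 and 53.9 CPM. The other 2 were GRB10 (-0.50, adjusted p = 0.022) and GAB1 (-0.52, adjusted p = 0.033). In parental cells, without and with doxycycline, GRB10 was 192 and 127 CPM and GAB1 13.6 and 9.85 CPM. All 3 adaptor genes were thus lower with the drug in cells without a hairpin too. Among 15 genes of PI3K, AKT and mTOR signalling 1 rose and 3 fell, a share near the 29.3% called over all genes, with PIK3CA at -0.61 (adjusted p = 0.0022), PIK3CB at -0.43 (0.010) and AKT1 at 0.39 (0.0041). PIK3CA and PIK3CB were also lower with doxycycline in parental cells (95.4 to 71.9 CPM and 107 to 86.1 CPM). PIK3CA lost its call without hairpin 3 (0.056). Of 9 FOXO factors and FOXO targets 1 fell, below the share over all genes, which was BCL6 (-0.70, adjusted p = 0.0029), whose call ended without hairpin 1 (0.059). Without hairpin 3 GRB10 (0.27), GAB1 (0.16), PIK3CB (0.19) and AKT1 (0.085) were not called either. GAB1 was also lost without hairpin 1 (0.073) or 2 (0.075), and GAB1, GRB10 and PIK3CB without the uninduced library of hairpin 1 (0.19, 0.051 and 0.059). Each of these 4 genes also missed the threshold on at least 1 FPKM scale, and GRB10 and GAB1 without the induced library of hairpin 2 (0.064 and 0.10) or 3 (0.076 and 0.13). GRB10 was lost without the uninduced library of hairpin 3 as well (0.084). Between the lines, IRS1 was lower in Hs578 by a log2 difference of -2.97, SHC1 by -2.13 and TXNIP, a FOXO target, by -5.73, while GRB10 was higher by 5.46.

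IGF2R carries proteins tagged with mannose 6-phosphate, and the genes of that route moved in both directions. The share called over all genes was 29.3%. Of 4 tested, GNPTG, a subunit of the enzyme that adds the tag, rose (0.88, adjusted p = 3.6e-04), while GNPTAB, which encodes its other subunits, fell (-0.70, adjusted p = 7.5e-04), as did M6PR, the smaller receptor (-0.45, adjusted p = 0.0081). GNPTG and GNPTAB were called under every alternative, and M6PR lost its call without hairpin 2 (0.056), without hairpin 3 (0.098) and on the FPKM scale (0.22 with either pseudocount). In parental Hs578 cells GNPTG was 13.6 CPM without and 21.3 CPM with doxycycline and GNPTAB 81.7 and 55.8 CPM, each on the side of the hairpin lines.

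The genes most like each called member were found over the 16 libraries, after the mean of each cell line was taken off, among 10351 genes. The log2 CPM of IGFBP6 correlated with that of FKBP10, RABAC1 and PRAF2 (Pearson r of 0.98 each). IGF2R was most like RAPGEF1 (0.96), AKAP13 (0.96) and SLC23A2 (0.95), and IGFBP4 like CFDP1 (0.96), ECH1 (0.94) and TMEM141 (0.94). For IGFBP1 the genes were ZFP69B (0.96), SLC7A1 (0.95) and NPC1 (0.95), and for IGF1R EPG5 (0.93), PDPR (0.93) and ITGA6 (0.92). For IGFBP7 they were NUDT2 (0.76), ENKD1 (0.74) and GTDC1 (0.72), but with 0 to 3 counts in the TT642 libraries its values there hold counting noise, so these r cannot be set beside the others. IGFBP1 had no count in TT642, and its correlations rest on the Hs578 libraries. These points share libraries, depth and the doxycycline contrast of Hs578, so the correlations only describe these libraries.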

How the data were processed

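For 16 libraries of polyadenylated RNA the authors deposited whole read counts (20114 gene symbols) and FPKM values (20111). Per the submitters' processing notes the genome build was hg19. An aligner, counting tool, annotation and strand setting were not given in the sources used here, so IGF2, IGF1R and IGF2R reads cannot be told apart from those of antisense or overlapping genes.

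Counts were fitted with edgeR 4.0.16 in R 4.3.3 (quasi-likelihood test, TMM scaling, default expression filter, robust moderation). All 16 libraries entered with 1 mean per group and 8 residual degrees of freedom, and each single parental library was assumed to vary like the hairpin groups. The filter left 14035 genes, all 10 members among them, but IGFBP1 had no count in TT642 and was not tested there. Tests were two-sided, with Benjamini-Hochberg adjustment over all genes. Intervals of ratios (95%) come from the exact binomial and reflect counting error alone. Ratios against 0 used a floor of 3 counts over the group. No libraries agreed within sampling noise (lowest chi-square per degree of freedom 5.35). On simulated counts for the Hs578 induction over 14035 genes, 88 of 100 genes changed by a log2 of 1 and 98 of 100 changed by 2 were recovered. Of the genes left unchanged 12 were called. The changed genes were drawn from those with higher counts, so recovery at low counts was not measured.

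By their titles, libraries of a cell line with 1 hairpin number are the same derived cells with and without the drug, so the numbers pair them. Their deviations from group means had correlations of 0.13, -0.03 and 0.00 (Hs578, hairpins 1 to 3) and 0.44, 0.42 and 0.42 (TT642).

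The members, the pathway lists and the markers were chosen with earlier results of these data known. Text names all members, PRRX1, IGF1 and INSR, up to 3 called genes per list and comparison with the smallest adjusted p, and for each member called for induction the 3 genes of highest correlation among those whose mean log2 CPM reached 2. IRS2, STC1 in the line comparison, and the markers named were added for description. Alternatives were relative log expression scaling, DESeq2 1.42.0, no filter, limma 3.58.1 on log2(FPKM + 1) and log2(FPKM + 0.1), the libraries of a line alone, a replicate block, and leaving out each hairpin or hairpin library. The block was the derived line, with parental cells as their own block. Where uninduced hairpin lines were compared between cell lines, it was the hairpin number. RefSeq promoter windows matched 7 of the 10 members. No protein sequence was used here.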

Additional observations from a re-analysis of the deposited data

Results flagged for a closer look

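No member is among these results, since edgeR without a replicate block called none for a difference between the lines in the doxycycline response. With the block IGFBP4 (adjusted p = 0.022) and IGF1R (0.040) were called, and by DESeq2 IGFBP6 (0.043). Of 47 other pathway genes tested, 5 passed edgeR's threshold for the induction effect in Hs578 minus that in TT642. The share called over all genes was 5.24%. IRS1 differed by -0.78 on the log2 scale (SE 0.15, adjusted p = 0.016), with effects of -0.76 in Hs578 and 0.02 in TT642. GNPTAB differed by -0.70 (SE 0.15, adjusted p = 0.026) and GNPTG by 0.74 (SE 0.16, adjusted p = 0.027). ADAM9, a protease gene, differed by -0.71 (SE 0.18, adjusted p = 0.042), with effects of -0.33 in Hs578 and 0.38 in TT642, and PIK3CB by -0.61 (SE 0.16, adjusted p = 0.043). These differences do not take off the parental response. In parental Hs578 cells, without and with doxycycline, ADAM9 was 1326 and 1074 CPM, IRS1 74.9 and 53.9 CPM and PIK3CB 107 and 86.1 CPM. GNPTAB and GNPTG also moved there to the side of the hairpin lines, as given above. None of the 5 was called without hairpin 2 (adjusted p of 0.061 to 0.12) or without hairpin 3 (0.23 to 0.42), and 4 of the 5 were lost without hairpin 1 (0.058 to 0.090). All 5 were also lost without the uninduced Hs578 library of hairpin 1 (0.051 to 0.12) or the uninduced TT642 library of hairpin 1 (0.054 to 0.099) or 3 (0.051 to 0.098), and 1 to 4 of them without most other single libraries. By limma on log2(FPKM + 1) and log2(FPKM + 0.1) values, PIK3CB (0.13 and 0.14) and GNPTAB (0.070 and 0.082) were not called. PAPPA differed between hairpin and parental Hs578 cells in its response, by -1.75 (SE 0.33, adjusted p = 0.042).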

How the results depend on the processing

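IGFBP1 and IGFBP4 kept their Hs578 induction calls under every alternative. Over all named genes, 554 values under alternatives that kept all libraries had the same direction and side of the threshold, 12 gained a call, 25 lost one and 14 reversed. With libraries left out the numbers were 729, 13, 106 and 41. With each derived line as a replicate block, which pairs its libraries, genes called numbered 46 for TT642 induction, 1763 for the line difference of induction and 140 for the Hs578 net effect, against 4, 735 and 57. DESeq2 called 79, 1425 and 296, and 212 for TT642 hairpin lines against parental cells (129 in the test as reported). Using log2(FPKM + 1) gave 13 for TT642 induction, 1118 for the line difference and 1 for the TT642 net effect (0 otherwise). Using log2(FPKM + 0.1) gave 13 for the Hs578 net effect and 78 for TT642 against parental cells. Libraries of the line alone gave 2, 2 and 54 for TT642 induction, the Hs578 net effect and TT642 against parental cells, and no filter gave 8 for TT642 induction.

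Leaving out hairpins or libraries gave 840 to 4768 calls for Hs578 induction (4118 as reported, lowest without hairpin 3), 0 to 6 for TT642 induction, 2 to 2082 for the line difference (lowest without hairpin 3), 0 to 139 for the Hs578 net effect and 74 to 171 for TT642 against parental cells.

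These signs reversed on the log2(FPKM + 1) and log2(FPKM + 0.1) scales, in that order: IGFBP5 in TT642 induction (0.0030 and 0.037) and the line difference (-0.32 and -0.39), IGF2R in the Hs578 net effect (-0.23 and -0.24), and in TT642 IGFBP2 (0.13 and 0.18) and IGF1R (0.63 and 0.85) net of parental cells and IGF1R against parental cells (-0.34 and -0.46). With log2(FPKM + 1) the line difference of IGFBP2 was -0.076, and with the replicate block its TT642 net effect was 0.036. None of these was called.

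With a hairpin or library left out, uncalled signs also reversed. In TT642 induction the ranges were -0.17 to 0.062 for IGF1R, -0.11 to 0.040 for IGF2R, -0.18 to 0.54 for IGFBP2, -1.52 to 1.44 for IGFBP5 and -3.59 to 2.04 for IGFBP7. In the line difference they were -0.92 to 0.074 for IGF2, -0.60 to 0.082 for IGFBP3, -2.05 to 1.32 for IGFBP5, -1.49 to 3.97 for IGFBP7 and -0.97 to 0.30 for PRRX1. Net of parental cells they were -0.10 to 0.23 for IGF2R in Hs578, and -0.14 to 0.0038 for IGF2R, -0.40 to 0.33 for IGFBP2 and -0.40 to 2.56 for IGFBP5 in TT642. Against TT642 parental cells they were -0.053 to 0.12 for IGF1R and -0.17 to 0.032 for IGFBP4. IGFBP5 in Hs578 induction ran from -0.61 to 0.12. The cause was not tested. Counts of 0 to 4 limit IGFBP2 in Hs578, and single parental libraries limit every net effect.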
